A study of Homo sapiens with 6 samples.

Results

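The ERBB receptors are cell surface tyrosine kinases that bind growth factors of the EGF family, and 8 of these genes were examined here out of the 27381 genes in the deposited table. They were taken by name, with no threshold on their values, and comprise the receptors EGFR, ERBB2 and ERBB3 and the ligands AREG, EREG, HBEGF, TGFA and BTC. All 8 were in the table. EGFR binds ligand and signals through its own kinase. ERBB2 has no known ligand and acts as the preferred dimer partner of the other receptors, while ERBB3 binds neuregulins, has little kinase activity of its own and recruits PI3K once it is paired. The ligands are made as membrane-bound precursors, released by ADAM proteases, and bind EGFR, with EREG, HBEGF and BTC also binding ERBB4. In epithelial cancers, including prostate cancer, cells often make their own EGFR ligands.

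RNA was sequenced from DU145 cells, an established human line from a metastatic, castration-resistant prostate cancer. There were 6 libraries, with 2 each from cells that received a scrambled sgRNA with Cas9 (Scr), from a CRISPR/Cas9 knockout of CD24 (CD24 KO) and from a knockout of RCC2 made in the same way (RCC2 KO). Knockout and control cells were expanded as clones after sorting for GFP, and the labels do not say whether the libraries of a group came from separate clones. The study asked which genes and pathways differ between each knockout and the scrambled control.

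The table gives 1 FPKM value per gene and condition, that is, the amount of fragments per unit of transcript length, relative to all that mapped. No spread between libraries could be computed, and none of the differences that follow has a replicate check or a test. The column for RCC2 KO carries a name that is also the whole label of its first library, so whether it combines both is uncertain. The table has no counts, and the depth behind each value is unknown.

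Neither targeted RNA was lower in its own knockout than in Scr. Scr, CD24 KO and RCC2 KO had 93.2, 309 and 214 FPKM of CD24, and 37.8, 14.2 and 41.8 FPKM of RCC2, the order used for all sets of 3 levels. The methods identify knockout clones by Sanger sequencing of genomic DNA and by Western blot, but the RNA of the targets does not check the labels of these libraries, and each direction given for CD24 KO or RCC2 KO rests on those labels. Among markers of epithelial lines, 6 of 7 were at 1 FPKM or more in every condition, KRT5 was listed at 0, and the summed level was 1119 FPKM for Scr, 898 for CD24 KO and 1292 for RCC2 KO. KRT8 was at 336, 149 and 348 FPKM, KRT18 at 293, 141 and 305 FPKM, and CDH1, the epithelial cadherin, at 27.9, 52.6 and 23.7 FPKM. KLK2, KLK3 and FOLH1, markers of differentiated prostate cells, were listed at 0 in all 3 conditions. Of 10 markers of fibroblasts and blood cells only CD68, a lysosomal protein not limited to macrophages, reached 1 FPKM, at 37.1, 81.5 and 38.4 FPKM. PTPRC, CD3E and HBB were listed at 0 throughout, and COL1A1 was between 0.359 and 0.678 FPKM. In CD24 KO the markers differed from Scr in both directions, with KRT8 and KRT18 lower and CDH1 and CD68 higher. Their part in the differences given for that condition was not tested. In RNA from whole cultures, fewer cells that express a gene and less RNA per cell cannot be told apart.

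All 8 genes had at least 1 FPKM in at least 1 condition, the minimum for comparison, which 12822 genes met. AREG met it only through Scr and RCC2 KO. Because FPKM is scaled to transcript length, levels of different genes can be set side by side. EREG was the most abundant of the 8 in every condition and EGFR was next. BTC and AREG were the lowest in every condition. Between these ends the order changed with the condition, with HBEGF above ERBB2 in Scr and RCC2 KO and below it in CD24 KO, and with TGFA above ERBB3 in Scr and RCC2 KO and below it in CD24 KO. Without a spread between libraries it cannot be said which of these neighbours in rank truly differ.

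**Figure D1:**
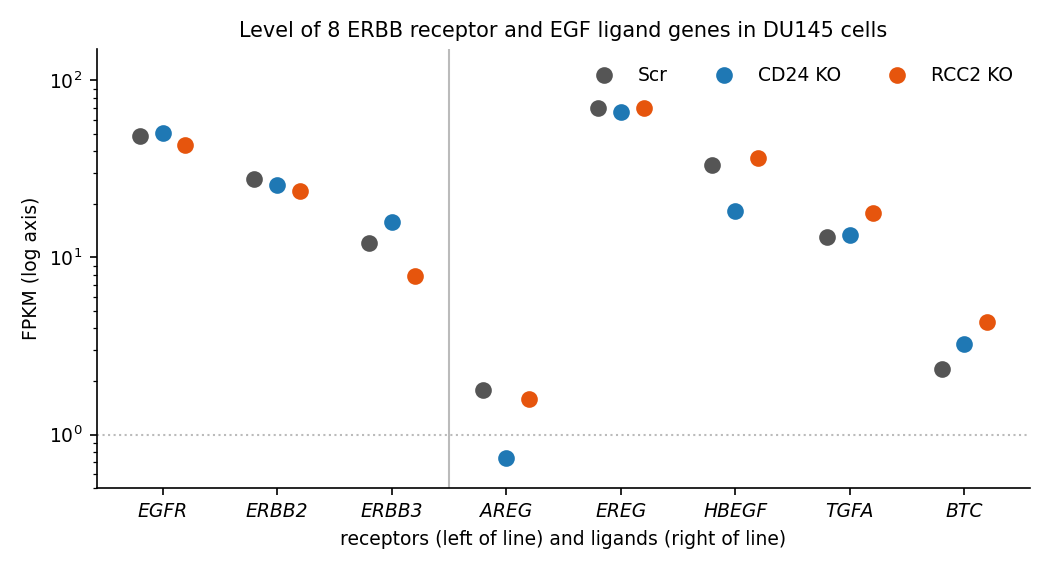
Level of each gene as FPKM on a log axis, 1 point per gene and condition (grey Scr, blue CD24 KO, orange RCC2 KO), with receptors left and ligands right of the line. EREG lies at 66.1 to 69.9 FPKM in all 3 conditions, HBEGF is lowest in CD24 KO at 18.3 FPKM, ERBB3 is lowest in RCC2 KO at 7.89 FPKM, and AREG is below the dotted line at 1 FPKM only in CD24 KO.

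Among the receptors, EGFR was at 48.7 FPKM for Scr, 50.3 for CD24 KO and 43.1 for RCC2 KO. These levels placed EGFR at percentile 89.4, 91.2 and 87.8 of the genes above 0 in the same columns, so it was a well expressed gene in all 3. The differences of log2(FPKM + 1), the scale used for all changes here, were 0.045 for CD24 KO against Scr, -0.17 for RCC2 KO against Scr and -0.22 for RCC2 KO against CD24 KO. Of all genes compared, 91.7% differed by at least as much as EGFR between CD24 KO and Scr. In the table, EGFR lies on chromosome 7 (coordinates taken as hg19) from 55086714 to 55275773, and EGFR-AS1, given the same position, was listed at 0 in all 3 conditions.

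ERBB2 was at 27.7, 25.7 and 23.7 FPKM in Scr, CD24 KO and RCC2 KO. The differences were -0.10, -0.22 and -0.11 for CD24 KO against Scr, RCC2 KO against Scr and RCC2 KO against CD24 KO, the order in which sets of 3 differences are given from here on. ERBB2 lies on chromosome 17 from 37844337 to 37886816, where its position in the table overlaps those of MIEN1 and MIR4728, and fragments in the overlap could have been assigned to either gene. On this scale both EGFR and ERBB2 thus stayed within a difference of 0.25 in all comparisons. When each column was divided by its sum, EGFR was at -0.42 and ERBB2 at -0.31 in RCC2 KO against CD24 KO. With the same division EGFR was at 0.26 in CD24 KO against Scr.

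ERBB3 differed most among the receptors. It was at 12.0 FPKM for Scr, 15.8 for CD24 KO and 7.89 for RCC2 KO, or percentile 65.2, 72.5 and 57.2. The level in CD24 KO was thus the highest and that in RCC2 KO the lowest. The differences were 0.37, -0.55 and -0.92. The ratio of the FPKM values themselves was 2.00-fold lower in RCC2 KO than in CD24 KO, while the pseudocount of 1 brings the difference to just inside the 2-fold minimum. In RCC2 KO against Scr, 6.28% of all genes compared differed by at least as much as ERBB3, and in RCC2 KO against CD24 KO 10.5% did. ERBB3 lies on chromosome 12 from 56473809 to 56497291, and no other gene in the table overlaps it. As a share of the EGFR level, ERBB3 was at 24.7% in Scr, 31.4% in CD24 KO and 18.3% in RCC2 KO, and as a share of its partner ERBB2 at 43.5%, 61.5% and 33.3%. These ratios within a column do not depend on how the columns were scaled. ERBB2 as a share of EGFR moved less, at 56.8%, 51.0% and 55.0%.

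Among the ligands, EREG (epiregulin) was at 69.9 FPKM for Scr, 66.1 for CD24 KO and 69.6 for RCC2 KO. It ranked at percentile 93.0, 93.8 and 93.0 of the genes above 0. The differences were -0.080, -0.0068 and 0.073, the smallest of the 8 genes in the comparisons of RCC2 KO with Scr and with CD24 KO, and their sign was set by the scaling, as all 3 turned when each column was divided by its sum. EREG lies on chromosome 4 from 75230860 to 75254477.

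HBEGF (heparin-binding EGF-like growth factor), which also serves as the diphtheria toxin receptor, was at 33.5 FPKM for Scr, 18.3 for CD24 KO and 36.5 for RCC2 KO. Its percentile was 84.2, 75.5 and 85.6. The level in CD24 KO was thus apart from the other two, which lay close together. The differences were -0.84, 0.12 and 0.96, and the FPKM value was 1.83-fold lower in CD24 KO than in Scr and 1.99 times as high in RCC2 KO as in CD24 KO. In CD24 KO against Scr, 9.32% of the genes compared differed at least as much, and 9.33% did in RCC2 KO against CD24 KO. On this scale HBEGF had the largest difference of the 8 genes in both of these comparisons, but the rank depended on the settings. AREG was farther from 0 in CD24 KO against Scr with a pseudocount of 0.1 (-1.17 against -0.87), quantile normalization (-0.79 against -0.73) and division of columns by their sums (-0.77 against -0.64). Between the knockouts, AREG or ERBB3 was farther from 0 than HBEGF with the same 3 settings. HBEGF lies on chromosome 5 from 139712428 to 139726188 with no overlapping gene in the table.

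TGFA (transforming growth factor alpha) was at 13, 13.5 and 17.8 FPKM in Scr, CD24 KO and RCC2 KO, with differences of 0.046, 0.42 and 0.38. The level in RCC2 KO was thus the highest, while Scr and CD24 KO were nearly alike. In RCC2 KO against Scr, 11.3% of the genes compared differed at least as much as TGFA. TGFA lies on chromosome 2 from 70674412 to 70781147, and TGFA-IT1 overlaps it.

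BTC (betacellulin) was a low gene, at 2.35 FPKM for Scr, 3.24 for CD24 KO and 4.32 for RCC2 KO. Its level was lowest in Scr and highest in RCC2 KO. The differences were 0.34, 0.67 and 0.33, and the FPKM value in RCC2 KO was 1.84 times that in Scr. In RCC2 KO against Scr, 3.78% of all genes compared differed at least as much, the smallest such share among the 8 genes in any comparison. BTC lies on chromosome 4 from 75669970 to 75719896.

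AREG (amphiregulin), which lies on chromosome 4 from 75310815 to 75320726, was at 1.78 FPKM for Scr, 0.737 for CD24 KO and 1.59 for RCC2 KO. These values are percentile 35.2, 26.2 and 35.2. The differences were -0.68, -0.10 and 0.58. At such low levels they depend on the pseudocount, and in CD24 KO against Scr the difference was -1.17 with 0.1 and -0.24 with 5. The FPKM value in CD24 KO was 2.42-fold lower than in Scr. The value in RCC2 KO was 2.16 times that in CD24 KO. RefSeq lists AREGB, the name once given to a near-identical second copy of this gene on chromosome 4, as a synonym of AREG. How fragments that match both copies were treated is not given in the sources used here, so the level of AREG is less certain than those of the other members.

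**Figure D2:**
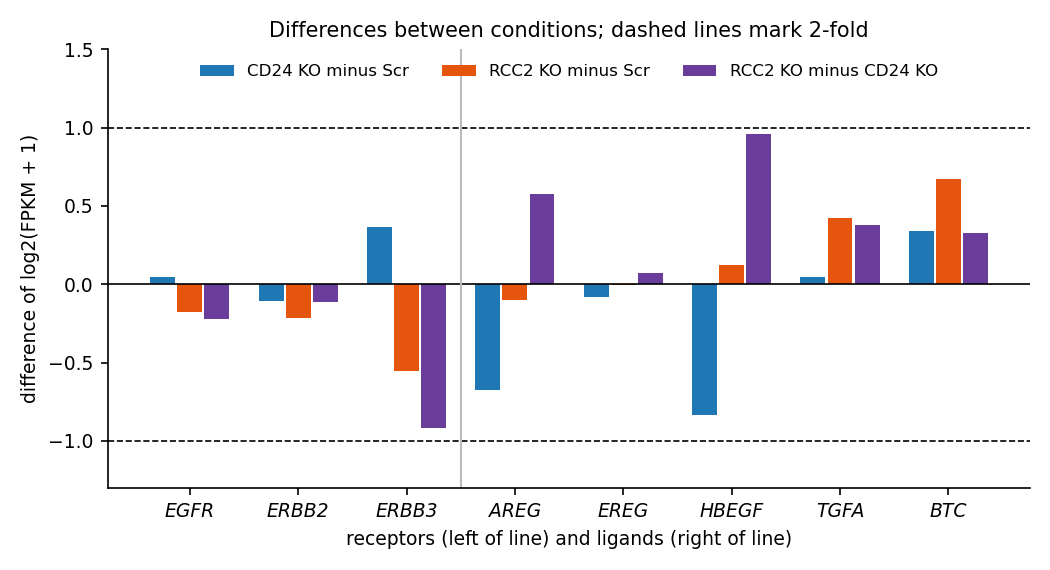
Difference of log2(FPKM + 1) for each gene in the 3 comparisons (blue CD24 KO minus Scr, orange RCC2 KO minus Scr, purple RCC2 KO minus CD24 KO), with dashed lines at 2-fold. No bar reaches a dashed line, and the longest are those of HBEGF (0.96) and ERBB3 (-0.92) in RCC2 KO minus CD24 KO, which point in opposite directions.

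None of the 8 genes reached a 2-fold difference of log2(FPKM + 1) in any comparison. This count depends on the pseudocount and the scaling, since AREG passed in CD24 KO against Scr and between the knockouts with a pseudocount of 0.1, and ERBB3 passed between the knockouts when columns were divided by their sums. Over all 12822 genes compared, 5.69% were at least 2-fold different between CD24 KO and Scr, 1.20% between RCC2 KO and Scr and 8.31% between RCC2 KO and CD24 KO. With 8 genes, each gene is 12.5% of the members, and a count of 0 does not stand apart from these shares. At a minimum of 1.5-fold, AREG and HBEGF were lower in CD24 KO than in Scr, 2 of 8 genes against 21.1% of all genes compared. BTC alone was at least 1.5-fold different between RCC2 KO and Scr, where it was higher and where 5.27% of all genes passed. Between RCC2 KO and CD24 KO, HBEGF was higher and ERBB3 lower in RCC2 KO, 2 of 8 genes against 27.9% of all genes. The counts are thus within 1 gene of the background in each comparison. The median size of the difference, regardless of sign, was 0.22, 0.20 and 0.35 for the 8 genes and 0.30, 0.15 and 0.35 for all genes compared. CD24 KO and RCC2 KO were compared with the same Scr values, so the first 2 comparisons are not independent of each other.

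The members are also given by role. In RCC2 KO, 3 of 3 receptors were lower than in Scr and 3 of 3 were lower than in CD24 KO, with medians of -0.22 in both comparisons, against medians of -0.0036 and 0.017 for all genes, and of the 6 differences only that of ERBB3 against CD24 KO reached 1.5-fold. Between the knockouts all 5 ligands had the higher value in RCC2 KO, and their median difference was 0.38, but only HBEGF reached 1.5-fold and EREG turned to lower under quantile normalization and when columns were divided by their sums. Against Scr, 3 of 5 ligands had higher values in RCC2 KO (median difference 0.12) and 3 of 5 had lower values in CD24 KO (median difference -0.080).

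Summed over the 5 genes, ligand RNA was at 121 FPKM for Scr, 102 for CD24 KO and 130 for RCC2 KO. The 3 receptors summed to 88.5, 91.8 and 74.6 FPKM. The ligand and receptor sums depend on how the columns were scaled. The ratio of ligand to receptor RNA was 1.36 in Scr, 1.11 in CD24 KO and 1.74 in RCC2 KO, a value that the scaling of the columns does not touch. EREG made up 58.0% of the ligand sum in Scr, 64.9% in CD24 KO and 53.6% in RCC2 KO, and HBEGF made up 27.8%, 18.0% and 28.2%. Together these ligands held 85.8%, 82.9% and 81.8% of the sum. HBEGF stood at 47.9% of the EREG level in Scr, 27.7% in CD24 KO and 52.5% in RCC2 KO. TGFA took 10.8%, 13.2% and 13.7% of the ligand sum, and BTC and AREG together made up the small remainder. EGFR held 55.1%, 54.8% and 57.7% of the receptor sum, and ERBB3 13.6%, 17.2% and 10.6%.

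**Figure D3:**
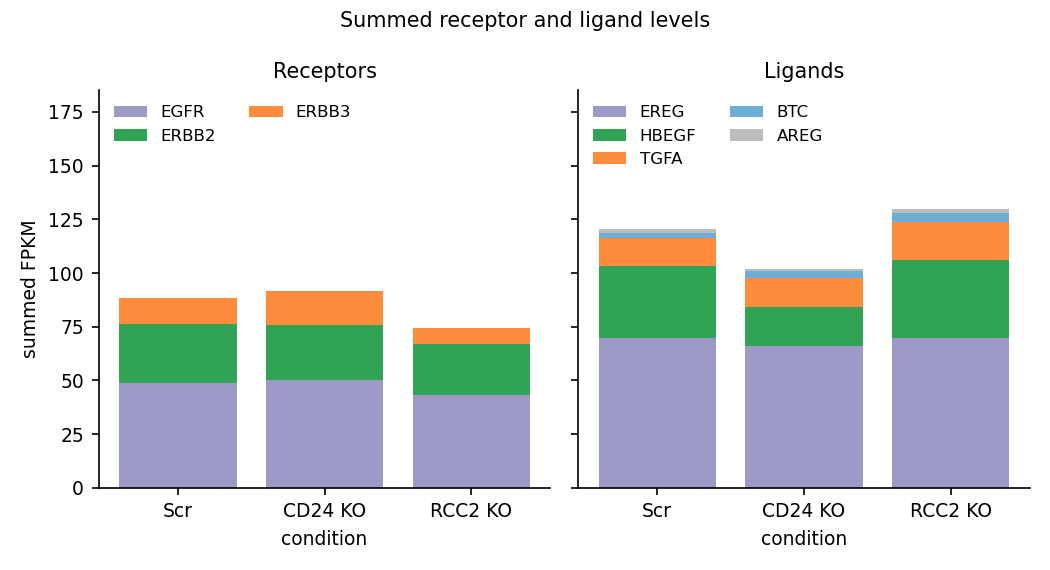
Summed FPKM of the 3 receptors (left) and the 5 ligands (right) in each condition, with 1 colour per gene and bars starting at 0. The ligand sum is lowest in CD24 KO (102 FPKM), where the HBEGF part is smallest, and the receptor sum is lowest in RCC2 KO (74.6 FPKM).

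EREG, AREG and BTC lie in a cluster of EGF ligand genes on chromosome 4, with EPGN, the gene for epigen, at its other end. Between EPGN and BTC the table lists only these 4 genes. Their levels were very unequal, since EREG was 39.3 times AREG in Scr, 89.6 times in CD24 KO and 43.8 times in RCC2 KO, although their starts in the table are only 80.0 kb apart. EPGN was listed at 0 in Scr and was at 0.0209 and 0.116 FPKM in CD24 KO and RCC2 KO. Within the cluster AREG was lower in CD24 KO than in Scr, BTC higher and EREG nearly the same. AREG and BTC were low, however, and 44.5% of all genes compared differed at least as much as BTC (0.34). Whether the genes of the cluster differ together thus cannot be said.

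The 200 bases before the RefSeq start are shown for EREG and AREG, the most and the least abundant ligands and neighbours on the chromosome, and for HBEGF, the next most abundant ligand after EREG in every condition. These were chosen after the values had been seen. They run in the direction of transcription on GRCh38.p14, with EREG at chr4:74364945-74365144 on the plus strand, AREG at chr4:74444936-74445135 on the plus strand and HBEGF at chr5:140346604-140346803 on the minus strand. Capitals mark matches on either strand to the motifs described after the sequences.
EREG: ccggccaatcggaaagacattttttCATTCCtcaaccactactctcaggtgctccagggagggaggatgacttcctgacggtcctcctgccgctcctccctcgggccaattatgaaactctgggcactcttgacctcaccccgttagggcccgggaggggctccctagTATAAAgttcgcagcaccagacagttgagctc
AREG: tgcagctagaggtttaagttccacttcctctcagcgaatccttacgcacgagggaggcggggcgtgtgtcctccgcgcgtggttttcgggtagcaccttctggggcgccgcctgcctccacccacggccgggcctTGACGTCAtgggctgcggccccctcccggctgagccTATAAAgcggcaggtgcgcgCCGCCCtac
HBEGF: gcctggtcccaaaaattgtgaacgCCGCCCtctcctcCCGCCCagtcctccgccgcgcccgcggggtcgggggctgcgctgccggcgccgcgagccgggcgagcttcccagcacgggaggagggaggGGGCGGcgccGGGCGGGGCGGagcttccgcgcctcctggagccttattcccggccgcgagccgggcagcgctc
RefSeq promoters of 300 bases, from 250 before to 50 after the start, were found for 7 of the 8 genes, all but ERBB3. TATAAA, the TATA box, starts 32 bases before the start of EREG and 29 bases before that of AREG. It was found for 3 of the 7 genes, the other being EGFR at a second start given by RefSeq, and in 11.5% of all 35116 promoters. TGACGTCA, the cyclic AMP response element, starts 65 bases before the start of AREG and was found in no other of the 7 genes and in 1.85% of all promoters. GGGCGG, the core of the GC box bound by Sp1, occurs 5 times in HBEGF, with 2 matches that overlap each other by a base, and was found for 5 of the 7 genes and in 45.0% of all promoters. GGAATG, bound by TEAD factors, was found for EREG and EGFR and in 14.0% of all promoters. TGANTCA, bound by AP-1, was found for ERBB2 and the second start of EGFR and in 7.71% of all promoters. ACGTG, the core of the hypoxia response element, was found only for EREG, after its start, and in 21.4% of all promoters. The GC content of the 300 bases was 57.7% for EREG, 66.3% for AREG and 75.0% for HBEGF, with a median of 58.7% over all promoters. These matches describe the letters of the window and say nothing about binding in these cells.

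The chromosomal surroundings of the members were described by the 5 nearest compared genes on each side. Between RCC2 KO and CD24 KO, the difference of HBEGF (0.96) was above those of all 10 neighbours, which ranged from -0.56 to 0.70 with a median of 0.42. ERBB3 (-0.92) was below all 10 of its neighbours, which ranged from -0.85 to 1.11 with a median of 0.092, and it was below all 10 in RCC2 KO against Scr as well. BTC was above all 10 of its neighbours in both knockouts against Scr. For AREG in CD24 KO against Scr, 1 of 10 neighbours was lower than its -0.68, and the neighbours had a median of -0.39, below the -0.034 of all genes compared. Neighbours at least 2-fold different in a comparison were UPP1 and LANCL2 near EGFR, GRB7 near ERBB2, RPS26 near ERBB3, CXCL1 near EREG, and FAM136A, ATP6V1B1-AS1 and MCEE near TGFA. GRB7, an adaptor protein that binds ERBB2 and is often amplified with it, was at 7.82 FPKM for Scr, 12.3 for CD24 KO and 5.24 for RCC2 KO, with a difference of -1.09 between the knockouts. The gene beside it, ERBB2, differed by -0.11 in that comparison.

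**Figure D4:**
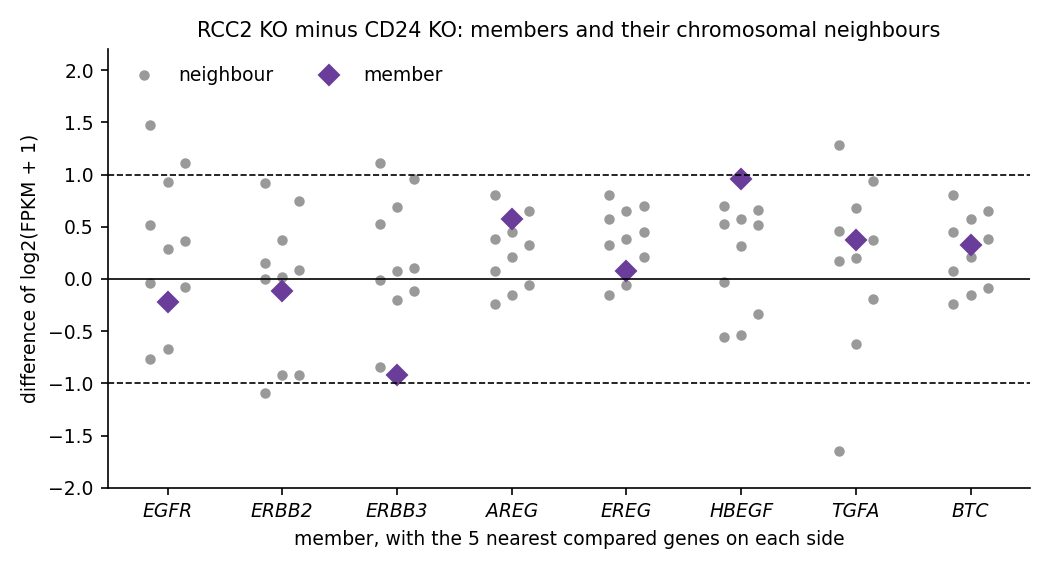
Difference of log2(FPKM + 1) between RCC2 KO and CD24 KO for each member (purple diamond) and for the 5 nearest compared genes on each side of it (grey points), with dashed lines at 2-fold. HBEGF at 0.96 lies above and ERBB3 at -0.92 below all of their own neighbours, while the other 6 members lie among theirs.

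The remaining receptor and ligands of the family were low. ERBB4, the other neuregulin receptor, was at 0.00375 FPKM in Scr and 0.0401 FPKM in CD24 KO and was listed at 0 in RCC2 KO, and NRG3 was listed at 0 throughout. Of the 7 genes on this list 4 could be compared, and 2 of these were at least 2-fold different in CD24 KO against Scr and in RCC2 KO against CD24 KO. Over all genes compared, the shares were 5.69% and 8.31%, and 4 genes are too few to set beside them. NRG1, a neuregulin that binds ERBB3, was at 0.490 FPKM for Scr, 3.98 for CD24 KO and 1.16 for RCC2 KO, with differences of 1.74, 0.53 and -1.21. NRG1 and ERBB3 were thus both highest in CD24 KO, but in RCC2 KO against Scr NRG1 was higher (0.53) and ERBB3 lower (-0.55). NRG4, a ligand of ERBB4, was at 1.80, 0.379 and 2.15 FPKM with differences of -1.02, 0.17 and 1.19, so that it was lowest in CD24 KO. NRG1 met the minimum of 1 FPKM in the knockouts but not in Scr, and NRG4 in Scr and RCC2 KO but not in CD24 KO. The filter thus fixed the direction of both in CD24 KO against Scr. With at least 1 FPKM in every column, only 1 gene of this list, NRG2, would remain. NRG2 had the highest level of this list in Scr, at 3.55 FPKM, and EGF itself was at 0.455, 0.860 and 1.08 FPKM.

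Of 8 genes for the release of ligands from the membrane 7 were compared, and none was 2-fold or even 1.5-fold different in any comparison. Over all genes compared, 21.1%, 5.27% and 27.9% were at least 1.5-fold different. ADAM17, the main protease for HBEGF, TGFA and AREG, was at 45.6, 51.1 and 40.2 FPKM with differences of 0.16, -0.18 and -0.34. ADAM10, the main protease for EGF and BTC, was at 80.6, 57.7 and 71.9 FPKM with differences of -0.48, -0.16 and 0.31. ADAM9 was the most abundant, at 144, 147 and 141 FPKM. The medians of the list were 0.021, -0.082 and -0.053.

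Among 28 adaptors and kinases that carry the signal from the receptors to ERK and AKT, 1 was at least 2-fold different in CD24 KO against Scr, none in RCC2 KO against Scr and 1 in RCC2 KO against CD24 KO. The shares of all genes compared were 5.69%, 1.20% and 8.31%, so these counts did not exceed the background. The 1 gene was HRAS in both cases, at 11.0 FPKM for Scr, 4.97 for CD24 KO and 11.4 for RCC2 KO. SHC1, the adaptor with the highest level, was at 387, 315 and 310 FPKM. The medians were -0.12, -0.066 and 0.0022, beside -0.034, -0.0036 and 0.017 for all genes compared.

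Of 26 genes that turn over the receptors or restrain their signal, 2 were at least 2-fold different in CD24 KO against Scr and none was in the other comparisons. The shares of all genes compared were 5.69%, 1.20% and 8.31%. PTPN1, a tyrosine phosphatase that acts on EGFR, was at 41.6 FPKM for Scr, 89.9 for CD24 KO and 51.8 for RCC2 KO, with differences of 1.09, 0.31 and -0.79. SOCS3, a suppressor of cytokine signaling, was at 14.9, 5.03 and 8.38 FPKM with differences of -1.40, -0.76 and 0.64. PTPN12 had the highest level in Scr at 154 FPKM. At 1.5-fold, 4 genes of the list were higher in CD24 KO than in Scr and 2 lower. Of all genes compared, 21.1% passed this minimum in either direction. The lower ones were SOCS3 and PTPN2, which was at 49.5, 28.9 and 48.2 FPKM. The higher ones included 3 feedback inhibitors besides PTPN1. ERRFI1, which binds and blocks the EGFR kinase, was at 143 FPKM for Scr, 230 for CD24 KO and 159 for RCC2 KO. DUSP5, an ERK phosphatase, was at 29.4, 51.6 and 28.1 FPKM, and DUSP4 was at 1.06, 3.02 and 1.18 FPKM. These 3 and PTPN2 were named after their values had been seen. The median over the list was -0.037 in CD24 KO, close to the -0.034 of all genes, so the list as a whole was not higher.

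Of 23 genes that ERK signaling induces in many cells, 20 were compared. In CD24 KO against Scr 2 were at least 2-fold lower and none higher, and in RCC2 KO against Scr 2 were at least 2-fold lower and none higher. Over all genes compared, 5.69% and 1.20% were at least 2-fold different in these comparisons, in either direction. At 1.5-fold, 2 genes of the list were higher and 2 lower in CD24 KO, and none was higher and 4 were lower in RCC2 KO. The shares of all genes at 1.5-fold were 21.1% and 5.27%. FOS was at 27.8 FPKM for Scr, 3.58 for CD24 KO and 4.84 for RCC2 KO, with differences of -2.65 and -2.30 that share the Scr value. PLAUR, the urokinase receptor, was at 45.9, 20.2 and 34.3 FPKM, with a difference of -1.15 in CD24 KO, and JUNB was at 45.2, 36.1 and 22.0 FPKM, with a difference of -1.01 in RCC2 KO. EGR1, at -0.99 in RCC2 KO, was just inside the minimum, as was DUSP4, at 0.96 in CD24 KO. EPHA4 was also higher in CD24 KO, at 0.80, but with 0.458, 1.54 and 0.553 FPKM it met the minimum for comparison only there. The filter thus fixed its direction. FOSL1 had the highest level in Scr and was at 199, 134 and 208 FPKM, an order across conditions that HBEGF also had. IER3 was listed at 0 in all 3 columns, and in this table a 0 is read as a listing only. The medians of the 20 genes were -0.21, -0.15 and -0.077. SPRY2, SPRY4, DUSP4 and DUSP6 stand on both this list and that of the inhibitors.

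**Figure D5:**
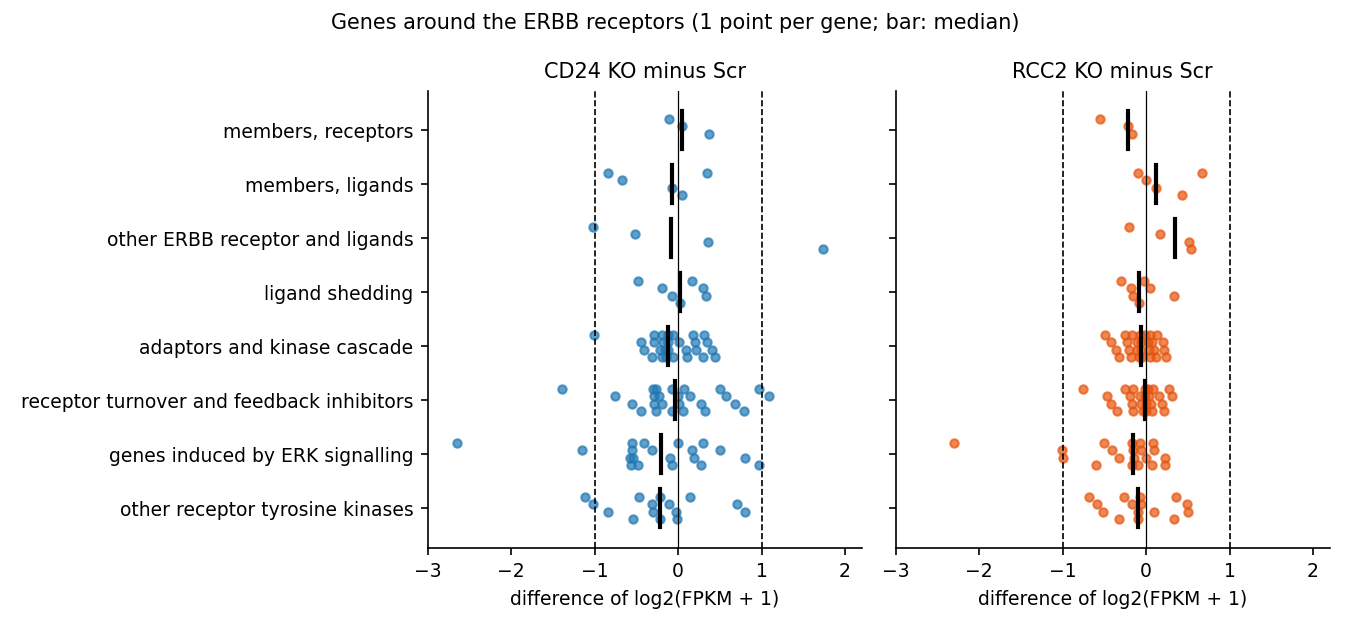
Difference of log2(FPKM + 1) of each compared gene, grouped by role, for CD24 KO minus Scr (left) and RCC2 KO minus Scr (right), with black bars at the medians and dashed lines at 2-fold. The medians of all groups lie between -0.22 and 0.34, and the points farthest from 0 are FOS on the left side of both panels and NRG1 at 1.74 on the right side of the first.

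The ERBB receptors were set beside 26 other receptor tyrosine kinases, of which 15 were compared. MET, the receptor for hepatocyte growth factor, was at 43.4 FPKM for Scr, 20.8 for CD24 KO and 55.8 for RCC2 KO, with differences of -1.02, 0.36 and 1.38. ROR1 was at 15.1, 6.41 and 21.7 FPKM with differences of -1.12, 0.50 and 1.62. Both were thus lowest in CD24 KO and highest in RCC2 KO, an order opposite to that of ERBB3. AXL had the highest level of this list in Scr, at 153 FPKM, and was at 249 and 215 FPKM in CD24 KO and RCC2 KO. The list had 2 genes at least 2-fold different in CD24 KO against Scr, none in RCC2 KO against Scr and 2 in RCC2 KO against CD24 KO. Over all genes compared, the shares were 5.69%, 1.20% and 8.31%. The medians of the list were -0.22, -0.092 and 0.011. Whether the ERBB receptors differ from these receptors could not be tested.

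For the 4 members that were at least 1.5-fold different in a comparison, the genes with the most similar pair of differences against Scr were looked up among protein-coding genes within 4-fold of the mean level. With only 3 conditions many genes have nearly the same pattern, and the likeness is a description. Nearest to HBEGF were NOL11, DHX15 and DEPDC1, and 108 of 6932 genes lay within a distance of 0.1 log2 units of it. For ERBB3 they were C17orf62, KHK and WBP1, with 25 of 8023 genes within that distance. AREG had POMT2, PRDM15 and NR2F1 as its nearest genes and 26 of 3436 within the distance. BTC had PLEKHG4, HKDC1 and AP1S2, and only 4 of 6088 genes lay as near.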

How the data were processed

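RNA was measured in 6 libraries of DU145 cells, 2 per condition by their labels. The authors deposited 1 table in FPKM with 27381 genes and 1 column per condition, read here as the authors' value for that condition. Whether the RCC2 KO column holds both libraries is uncertain. Their processing notes name HISAT, StringTie, Cufflinks and GATK, without versions or roles. A stranded mRNA kit is named in the paper's methods and an RNA kit for total RNA in the labels. No genome build is given in the sources used here. Only 15.4% of 25136 matched symbols overlapped their GRCh38.p14 position, so coordinates were read as hg19, with starts counted from 1.

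Genes with at least 1 FPKM in at least 1 column (12822 genes) were compared as differences of log2(FPKM + 1). A 2-fold difference was the minimum, since 1 value per condition allows no test. The members and gene lists were chosen with earlier results of these data known, and the lists were written from memory. Genes outside the members were named when at least 2-fold different in a comparison, or highest in Scr in their list. All others named were chosen after their values were seen. Some listed markers are not reported here. The RefSeq promoter table was searched for 6 motifs on both strands. The calculation was tested on simulated data with known changes. Alternatives were pseudocounts of 0.1 and 5, quantile normalization, division by column sums, median centring, other filters and a 1.5-fold minimum. Python 3.11.15, NumPy 2.4.6, pandas 2.3.3 and matplotlib 3.10.9 were used.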

Additional observations from a re-analysis of the deposited data

How the results depend on the processing

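No paired analysis was possible because the table holds 1 value per condition, and no library could be left out for the same reason. Of 120 differences of the 8 genes recomputed under 5 alternatives, 114 stayed on their side of the 2-fold minimum and within 0.25 of the value given. The number of members at least 2-fold different became 1 (AREG) with a pseudocount of 0.1, both in CD24 KO against Scr and in RCC2 KO against CD24 KO, where the differences were -1.17 and 1.01. It became 1 (ERBB3, at -1.16) in RCC2 KO against CD24 KO when columns were divided by their sums, an alternative that shifted the median of all genes by 0.16 in CD24 KO against Scr and by -0.17 between the knockouts. With a 1.5-fold minimum it was 2, 1 and 2 in the 3 comparisons. A pseudocount of 5 brought AREG to -0.24 in CD24 KO against Scr and to 0.20 in RCC2 KO against CD24 KO, and BTC to 0.34 in RCC2 KO against Scr.

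The sign turned in 7 of the 120 differences, all of EREG or ERBB2 and all under quantile normalization or division by the sums. HBEGF ranged from -0.87 to -0.64 in CD24 KO against Scr and from 0.78 to 0.99 between the knockouts, and ERBB3 from -1.16 to -0.69 between the knockouts. The summed ligands were at 116, 109 and 125 FPKM in Scr, CD24 KO and RCC2 KO after quantile normalization. They were at 267, 262 and 290 TPM after division by the sums. CD24 KO kept the lowest sum, but after division by the sums it lay close to Scr. The summed receptors were then at 196, 236 and 167 TPM in Scr, CD24 KO and RCC2 KO. Without a filter, 2.67%, 0.562% and 3.89% of all genes were at least 2-fold different in the 3 comparisons, and 0.578% in RCC2 KO against Scr with at least 1 FPKM in every column. Of 54 list medians under the other filters 48 moved by less than 0.25. Many of these could not move, since lists such as the adaptors and the turnover genes kept the same genes. The depth of the libraries is unknown, so the precision of low values such as those of AREG and BTC cannot be stated.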
